A study of Mus musculus with 3 samples.

Results

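A class of fibroblasts in the mouse ascending aorta carried transcripts of Comp, Chad or Fmod, which encode matrix proteins best known from cartilage and tendon. Its cells were selected on measured values. In cells with 600 to 5000 genes and at most 10% mitochondrial unique molecular identifiers (UMIs), values were taken as UMIs per 10000 UMIs of the cell. A fibroblast was a cell with Dcn at 20 or more, a sum of 6 smooth muscle genes (Acta2, Myh11, Tagln, Cnn1, Myl9 and Tpm2) under 100, and no UMI of Ptprc or Pecam1. It was a Comp/Chad/Fmod cell where Comp+Chad+Fmod was at least 3 and larger than both Pi16+Cd248+Scara5 and Gdf10+Hsd11b1+Cpxm2. The rule found 1032 cells among 26158 that passed the filter, and among 6057 Dcn fibroblasts. The class where the Pi16 sum was largest held 2209 cells, the class where the Gdf10 sum was largest 1748, and 1068 Dcn fibroblasts met no sum. The class is a range cut from a score per cell and not a proven cell type.

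The cells came from 3 droplet libraries of male C57BL/6J mice at P45. The WT library pooled 3 wild-type littermates, the mgR library 3 mice homozygous for the Fbn1mgR allele, which lowers fibrillin-1 and models Marfan syndrome, and the mgR-LOS library 4 such mutants given 0.6 g/L losartan, a blocker of the angiotensin II type 1 receptor, in drinking water from P16. Whether untreated mutants received a vehicle is not given in the labels. With 1 pooled library per condition no test between conditions was possible, mouse-to-mouse spread is unknown, and every interval below is a 95% interval that covers counting error only. Summed UMIs of a gene are given as CPM, counts per 1000000 UMIs of the cells summed.

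Fibroblasts of the vessel wall lay down and maintain collagen and elastic fibers. Those of tendon and fibrocartilage, tissues under tension and compression, and the interstitial cells of the heart valves share part of their program, including scleraxis (Scx), Sox9 and small leucine-rich proteoglycans, which coat and space collagen fibrils. The aortic valve leaflets insert just below the segment that was dissected here.

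The libraries passed 5361 WT, 8076 mgR and 12721 mgR-LOS cells, with medians of 13636, 12410.5 and 8334 UMIs per cell. The Comp/Chad/Fmod cells numbered 309 in WT, 277 in mgR and 446 in mgR-LOS, with medians of 13828, 12537 and 8838 UMIs and 4366098, 3647409 and 4027303 UMIs in all. The mgR-LOS library was therefore the shallowest per cell. Barcode sequences found in both of a pair of libraries numbered 22 between WT and mgR, 29 between WT and mgR-LOS and 46 between mgR and mgR-LOS, and no sequence marked a Comp/Chad/Fmod cell in more than a single library. A doublet score called 2 of the 309 WT cells, 11 of the 277 mgR cells and 9 of the 446 mgR-LOS cells. Over all cells that passed the filter, Fbn1 was at 361 CPM in WT, 150 in mgR and 117 in mgR-LOS, which matched the labels.

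The 3 genes of the rule were spread unevenly among the cells it chose. Their sum ran from 3.30 to 353 UMIs per 10000 in WT with a median of 33.4, from 3.01 to 253 in mgR with a median of 16.7, and from 3.03 to 303 in mgR-LOS with a median of 14.9. Cells just above the threshold, with a sum of 3 to 4, numbered 6 in WT, 14 in mgR and 30 in mgR-LOS. Just below it, 10, 14 and 29 fibroblasts had the same sum largest but at 2 to 3. Ecrg4, which the rule did not use, was not regularly higher inside than outside, and Tbx20 and Prg4 were lower inside in each library. Ecrg4 was at 1269 CPM inside and 2737 outside in WT, at 1444 and 666 in mgR, and at 615 and 1381 in mgR-LOS. Tbx20 was at 529 and 761, 195 and 313, and 534 and 946 CPM, and Prg4 at 317 and 1142, 5588 and 7173, and 169 and 580 CPM, in the same order. For Tbx20 the counting intervals overlapped in WT, at 368 to 736 inside and 607 to 942 outside. They overlapped in mgR too, at 132 to 276 inside and 230 to 416 outside. The sums of the other classes were low, with medians over the cells of 0.568, 0.590 and 0 for Pi16+Cd248+Scara5 and of 1.33, 1.34 and 1.16 for Gdf10+Hsd11b1+Cpxm2 in WT, mgR and mgR-LOS.

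Comp, an oligomeric thrombospondin of cartilage and tendon (ENSMUSG00000031849, chromosome 8 from 70373558 to 70382066), had a level of 2737 CPM (2688 to 2786) among the WT cells, 1828 (1785 to 1873) in mgR and 1387 (1351 to 1424) in mgR-LOS. Chad encodes chondroadherin, a leucine-rich protein that binds collagen and chondrocytes (ENSMUSG00000039084, chromosome 11 from 94565047 to 94569127). It was at 1532 CPM (1495 to 1569), 524 (501 to 548) and 387 (368 to 407) in the same order. Fmod encodes fibromodulin, a regulator of collagen fibril assembly (ENSMUSG00000041559, chromosome 1 from 134037254 to 134048277), and was at 1653 CPM (1616 to 1692), 1059 (1026 to 1093) and 1300 (1265 to 1336). All coordinates are GRCm38. Comp and Chad were thus highest in WT and lowest in mgR-LOS, while Fmod was lowest in mgR. For Chad, the 10 mgR cells with the most Col2a1 held 39.0% of the mgR UMIs. The 7 mgR-LOS cells with Col2a1 held 1.09% of those in mgR-LOS. The order of the Chad level between mgR and mgR-LOS therefore rests on few cells. After each cell was thinned to 3000 UMIs, Chad was seen in 40.1% of the WT cells, 16.8% of the mgR cells and 11.3% of the mgR-LOS cells, against 46.3%, 21.7% and 13.0% at full depth. Ptprc-positive immune cells, which should lack it, carried a Chad UMI in 0 of 130 cells (exact interval up to 2.80%), 0.615% of 1627 and 0.133% of 751 after the same thinning, and in 0.714%, 1.92% and 0.120% at full depth, with medians of 8693, 8215 and 7552.5 UMIs. Fmod was seen in 87.5%, 74.0% and 84.4% of the thinned Comp/Chad/Fmod cells in 41.7%, 47.2% and 44.5% of the thinned Gdf10-class fibroblasts, and in 1.54%, 2.21% and 2.26% of the thinned immune cells. Fmod is thus shared with the Gdf10 class, and its high share in the Comp/Chad/Fmod cells follows from the rule.

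The promoters of Chad, Fmod and Ecrg4 are shown because the first 2 belong to the rule and Ecrg4 is a marker gene outside it. Each sequence is the 250 bases before the transcription start, from RefSeq on GRCm38.p6, on the plus strand, 5′ to 3′, at chr11:94564797-94565046 for Chad, chr1:134037004-134037253 for Fmod and chr1:43730352-43730601 for Ecrg4. Capitals mark E-boxes, the motif of basic helix-loop-helix factors such as scleraxis.
Chad: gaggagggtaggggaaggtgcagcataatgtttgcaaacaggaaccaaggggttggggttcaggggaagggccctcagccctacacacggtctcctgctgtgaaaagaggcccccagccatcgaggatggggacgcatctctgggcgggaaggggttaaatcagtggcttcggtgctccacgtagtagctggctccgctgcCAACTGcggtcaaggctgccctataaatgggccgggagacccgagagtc
Fmod: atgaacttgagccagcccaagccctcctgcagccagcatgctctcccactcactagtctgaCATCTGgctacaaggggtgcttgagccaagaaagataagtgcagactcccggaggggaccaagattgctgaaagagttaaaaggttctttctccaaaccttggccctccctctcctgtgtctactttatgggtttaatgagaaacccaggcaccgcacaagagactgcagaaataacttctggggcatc
Ecrg4: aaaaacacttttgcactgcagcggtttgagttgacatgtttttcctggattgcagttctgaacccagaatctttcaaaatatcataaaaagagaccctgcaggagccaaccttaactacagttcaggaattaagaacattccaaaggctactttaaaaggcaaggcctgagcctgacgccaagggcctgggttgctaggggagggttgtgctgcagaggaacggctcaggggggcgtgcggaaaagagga
The search covered 4 motifs on both strands, the E-box CANNTG, which reads the same on either strand, the T-box core AGGTGT, the SOX core AACAAT and the AP-1 motif TGANTCA, and no matches overlapped in these windows. Chad held an E-box 49 bases before the start (CAACTG), Fmod 1 at 189 bases (CATCTG), and Ecrg4 held none of the 4 motifs. Of all 32851 promoter windows in the table, 66.2% held an E-box, 11.8% the T-box core, 9.42% the SOX core and 6.75% the AP-1 motif. Windows were matched by symbol for 11 of the 18 genes made up of Comp, Chad, Fmod and the 15 leading genes below (not for Cadm1, Clu, Comp, Cox4i2, Crispld1, Prg4 and Scx). An E-box stood in 8 of the 11, or 72.7%, close to the share of all promoters.

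Besides the genes of the rule, the genes furthest above the Pi16 and Gdf10 classes included Cilp2, Thbs4 and Scx of the tendon list and the Wnt antagonist Wif1. The cells were chosen by this contrast, so the ratios that follow describe them and nothing is read from their number. Of 2827 genes with at least 50 CPM in either class in every library, 80 (2.83%) were at least 2-fold higher in the Comp/Chad/Fmod cells in all 3 libraries and 111 (3.93%) at least 2-fold lower. The 15 genes with the highest ratio in their least favorable library were Cilp2, Thbs4, Ecrg4, Wif1, Spp1, Scx, Npy, Cytl1, Prg4, Kcnj15, Cadm1, Cox4i2, Aqp1, Clu and Crispld1. The 10 with the lowest were Emilin2, Ccl11, Efhd1, Ebf2, Ly6c1, Lrrn4cl, Clec3b, Adgrd1, Plac8 and Ly6a, of which Efhd1, Ly6c1, Clec3b and Ly6a belong to a list of Pi16 adventitial fibroblast genes.

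**Figure D1:**
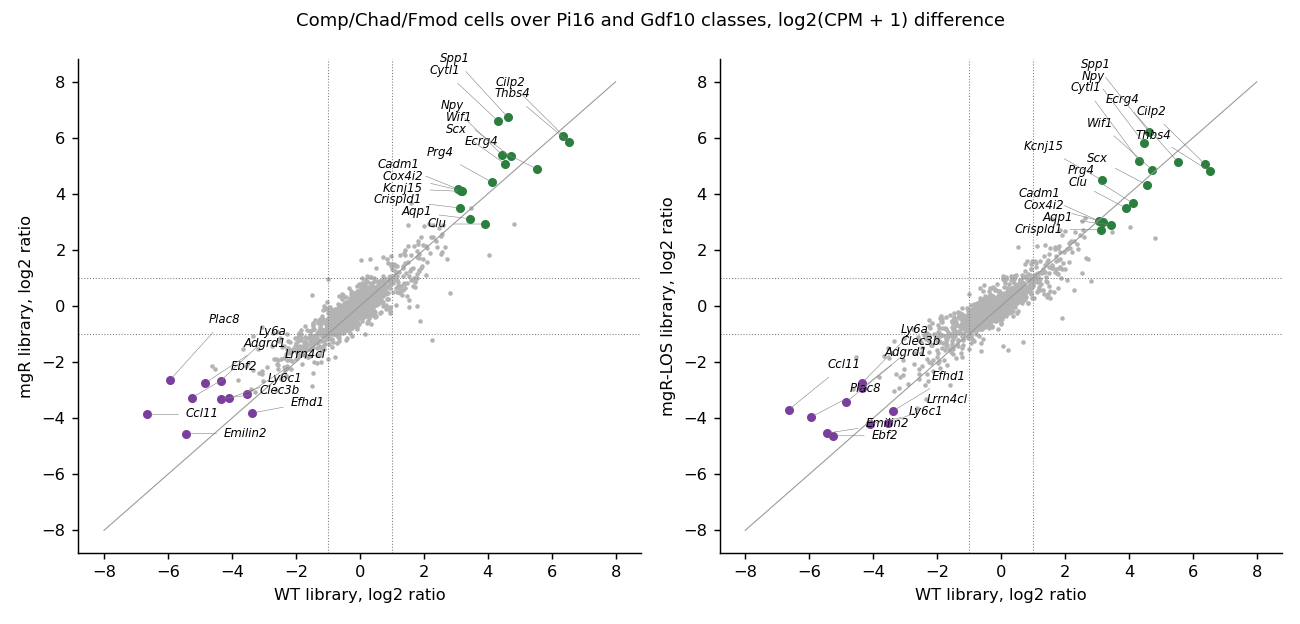
Each point is a gene tested, and the axes give the difference in log2(CPM + 1) between Comp/Chad/Fmod cells and the Pi16 and Gdf10 classes together, WT on the x axis and mgR (left) or mgR-LOS (right) on the y axis. Green points are the 15 highest and purple points the 10 lowest genes by the least favorable library, and dotted lines mark 2-fold. The named genes lie on the same side of both axes, as the rule for naming them requires.

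Cilp2, Thbs4 and Scx of the tendon list ranked 1, 2 and 6 among the 15 highest genes named above. Cilp2, a cartilage intermediate layer protein (ENSMUSG00000044006), was at 270 CPM in WT, 107 in mgR and 60.3 in mgR-LOS. In the other 2 classes Cilp2 was at 2.28, 0.596 and 0.824 CPM in the same order. Thbs4, a thrombospondin of tendon matrix, was at 203, 170 and 73.0 CPM against 1.22, 1.95 and 1.65. Scx, the transcription factor of tendon progenitors, was at 222, 186 and 105 CPM against 8.52, 4.60 and 4.26. The Dcn fibroblasts that met no sum, called no-class fibroblasts, held 64.7, 93.0 and 48.3 CPM of Scx. Each of these 3 genes was lower in mgR-LOS than in WT and far above the Pi16 and Gdf10 classes in every library. Of the 10 genes of a tendon and ligament list, 7 reached 20 CPM in some library, and 5 of them (Scx, Thbs4, Cilp2, Angptl7 and Clec3a) were at least 2-fold higher in all 3 libraries and none lower. List genes counted as measured by their level in the Comp/Chad/Fmod cells, which favors genes that are high there, so these counts are descriptions. The shares over all genes given above rest on another filter, at least 50 CPM in either class. Tnmd and Mkx, which mark mature and developing tenocytes, stayed under 10 CPM, with Tnmd at 4.58, 3.56 and 6.95 and Mkx at 8.25, 5.48 and 1.49.

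Many cartilage genes were also higher in the cells. Of 15 listed, 13 were measured and 10 were at least 2-fold higher than in the other classes in all 3 libraries, namely the aggrecan gene Acan, the collagen chains Col2a1, Col9a1, Col9a3, Col11a1 and Col11a2, the hyaluronan link protein Hapln1, Ucma, Cytl1 and Sox9. Acan was at 74.0, 76.5 and 19.9 CPM, and 105 of 309, 55 of 277 and 42 of 446 cells carried it. Sox9, the master factor of chondrocytes that is also expressed in valves, was at 283, 304 and 247 CPM and differed little between libraries. Matn1, a matrilin of hyaline cartilage, had no UMI in the Comp/Chad/Fmod cells of any library, and Matn3 was at 3.44, 0.274 and 0.745 CPM. Col2a1, the main collagen of hyaline cartilage, was carried by 17, 17 and 7 cells. Col9a1, a chain of cartilage collagen fibrils, was at 62.1, 101 and 35.5 CPM against 2.89, 0.867 and 1.65 in the Pi16 and Gdf10 classes and 24.3, 24.3 and 19.6 in the no-class fibroblasts, and was carried by 82 of the 277 mgR cells. The carrier counts of Acan, Col2a1 and Col9a1 are at full depth and stand without a background share from other cells. By such counts, members of the list ranged from absent to carried by many of the cells.

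Of the bone and mineralization list, 8 of 12 genes were measured, 3 were higher (Spp1, Enpp1 and Ank) and Smpd3 was lower. Enpp1 and Ank, which supply and export pyrophosphate and so oppose mineral growth, were at 91.4 and 110 CPM in WT, 79.2 and 161 in mgR, and 35.5 and 89.1 in mgR-LOS. Mgp, matrix Gla protein, an inhibitor of calcification, was found in every Comp/Chad/Fmod cell and was at 33651 CPM in WT, 28944 in mgR and 18577 in mgR-LOS. It was not at least 2-fold higher in all 3 libraries, and no background share of cells with Mgp is given. The whole list, most of it Mgp in these cells, summed to 34901, 31301 and 18947 CPM against 13653, 22470 and 12727 in the Pi16 and Gdf10 classes. The osteoblast factor Runx2 stayed at 12.6 CPM or less and Sp7 at 3.89 or less.

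The label valve-like was only partly borne out. All 10 genes of a valve interstitial list were measured and 5 (Tbx20, Hapln1, Postn, Sox9 and Gata4) were at least 2-fold higher than in the Pi16 and Gdf10 classes. Tbx20, a T-box factor of the heart and its valves (ENSMUSG00000031965), was at 382, 471 and 485 CPM in WT, mgR and mgR-LOS against 61.6, 61.9 and 54.2. However, the Dcn fibroblasts of no class carried more Tbx20, at 517, 557 and 555 CPM, and also more Postn (1265, 1588 and 1715 against 832, 1094 and 1184 CPM) and more Vcan (986, 1072 and 915 against 314, 481 and 430). Tbx20 was seen in 49.0%, 52.7% and 50% of Comp/Chad/Fmod cells thinned to 3000 UMIs, in 57.1%, 52.3% and 58.4% of the thinned no-class fibroblasts, and in 1.54%, 3.69% and 3.99% of the thinned immune cells. Prg4, which encodes the joint lubricant lubricin, was at 1855, 2811 and 842 CPM in the cells and at 578, 1485 and 236 in the no-class fibroblasts. Against the no-class fibroblasts 47 genes were at least 2-fold apart in all 3 libraries, a comparison added after the data were seen. It cannot be set against the number for the Pi16 and Gdf10 classes, which the rule itself separates from the cells. Of 7 valve endothelial genes 3 were measured and none was 2-fold apart, with Cdh5 at 0.229, 0 and 0.993 CPM and Emcn at 0, 0.274 and 0.497. Over the 10 valve interstitial genes, Tbx20, Postn, Vcan, Gata4 and Twist1 were higher in the no-class fibroblasts in each library, Hapln1, Cdh11, Nfatc1 and Bmp4 were higher in the Comp/Chad/Fmod cells, and Sox9 differed in direction between libraries. The list thus did not point one way between these classes, and the cells are named here by their 3 genes.

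**Figure D2:**
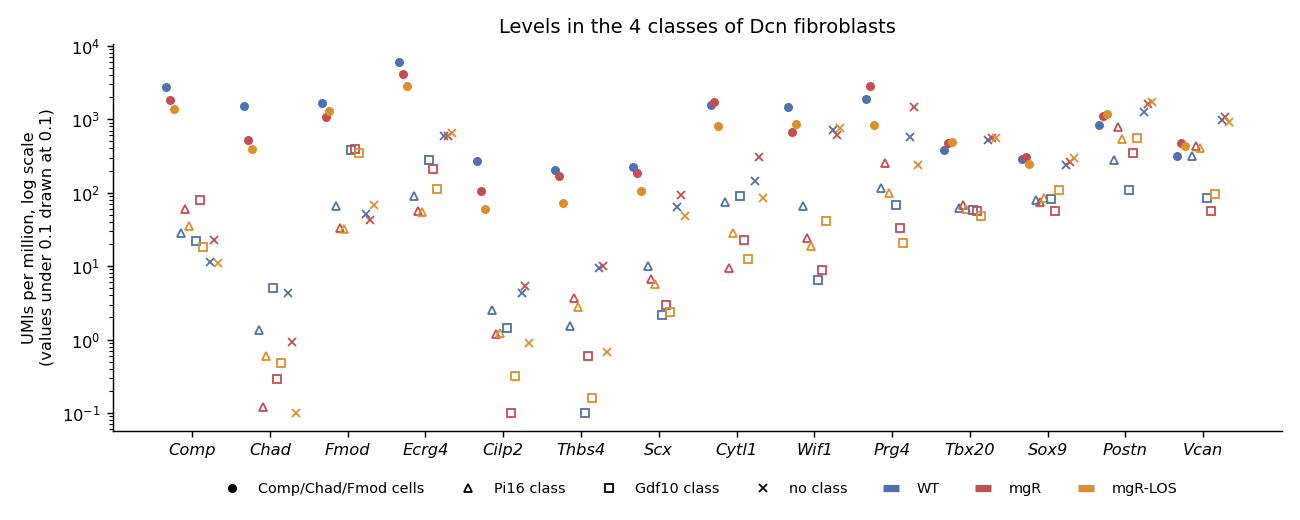
The y axis gives CPM on a log scale for 14 genes in the 4 classes of Dcn fibroblasts, by symbol, and the 3 libraries, by color. Chad, Cilp2 and Thbs4 are far higher in Comp/Chad/Fmod cells than in every other class, whereas Tbx20, Postn and Vcan are higher in the fibroblasts of no class. Chad is a gene of the rule, so its place was fixed by the choice of cells.

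Ecrg4, which encodes the secreted peptide precursor augurin (ENSMUSG00000026051, chromosome 1 from 43730602 to 43742578), lies outside the rule. It was at 6081 CPM (6008 to 6155) in WT, 4159 (4093 to 4226) in mgR and 2825 (2773 to 2877) in mgR-LOS, against 130, 139 and 79.9 in the Pi16 and Gdf10 classes and 596, 585 and 652 in the no-class fibroblasts. Wif1, which binds and blocks Wnt proteins, was at 1451, 676 and 858 CPM against 54.1, 15.8 and 28.4, but at 723, 618 and 763 in the no-class fibroblasts. Of 7 secreted Wnt antagonists measured among 11, Wif1, Frzb and Dkk3 were at least 2-fold higher than in the Pi16 and Gdf10 classes and none was lower. Frzb was at 288, 262 and 169 CPM, and Dkk3 at 1192, 980 and 1057. Sfrp1 was lower in the cells in each library, at 74.2, 180 and 278 CPM against 294, 561 and 530, without reaching 2-fold in mgR-LOS.

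Among 28 transcription factors of heart and connective tissue, 15 were measured. Tbx20, Gata4, Hand2, Meox1, Sox9 and Scx were at least 2-fold higher than in the Pi16 and Gdf10 classes and Tcf21, a factor of epicardial and adventitial fibroblasts, was lower, at 63.4, 61.7 and 61.1 CPM against 175, 158 and 130. Gata4 and Hand2, both factors of heart and outflow tract development, were at 39.6, 41.9 and 52.9 CPM and at 113, 149 and 142 CPM. Sox9 was at 240, 264 and 301 CPM in the no-class fibroblasts, Hand2 at 124, 142 and 138, and Meox1 at 143, 96.4 and 143, so these factors were not higher by 2-fold than in that class. Levels of these 6 factors were within 1.5-fold of each other between WT and mgR, and all but Scx between mgR and mgR-LOS.

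The matrix genes were mixed. Of 9 small leucine-rich proteoglycans measured outside the rule, Prelp and Epyc were at least 2-fold higher and none lower, with Prelp at 2730, 2078 and 1856 CPM against 456, 550 and 337. Of 4 thrombospondins outside the rule, Thbs1 and Thbs4 were higher. All 18 collagen chains listed were measured, Col8a2 and Col11a1 were higher and Col14a1 lower, and Col3a1 was at 4589, 4964 and 8159 CPM against 12564, 11785 and 11773. Of 15 elastic fiber genes measured, Loxl2 was higher and Fbn1, Fbln2, Efemp1 and Mfap5 were lower. Eln, the elastin gene, was at 1483, 1360 and 1325 CPM against 4142, 3077 and 1575. Most genes of these 4 matrix lists were thus less than 2-fold apart or not so in all 3 libraries.

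Signaling lists showed few differences from the other classes. Of 18 TGF-beta and BMP genes measured, Ltbp2 and Bmp2 were at least 2-fold higher and none lower. Of 9 angiotensin pathway genes, 2 (Ace and Lnpep) reached 20 CPM, and Agtr1a, the receptor that losartan blocks, was at 2.06, 1.65 and 2.23 CPM from 7, 5 and 9 cells. No gene of the cytokine, heat shock or interferon lists was at least 2-fold higher in all 3 libraries, and of 11 cytokine genes measured Ccl2 and the alarmin Il33 were lower. Il33 was at 79.5, 76.8 and 58.1 CPM against 182, 164 and 152. Of 10 Pi16 adventitial genes measured, 8 were at least 2-fold lower and none higher, and of 8 genes of the IGF axis Igfbp5 and Igfbp6 were lower. In the activated fibroblast list, Postn, Ltbp2, Tnc, Ddah1 and Meox1 were higher among 9 measured, of which Acta2 was used by the rule. Timp3 was higher and Adamts5 lower among 13 matrix proteases and inhibitors, and Klf4 was the only gene of 20 immediate early genes that differed, being lower.

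Marker lists of other cells were examined in the same cells. No endothelial gene of 9 and no cycling gene of 7 reached 20 CPM, and the endothelial list summed to 12.4, 26.3 and 18.4 CPM. Pecam1 of the endothelial list was excluded by the rule, so that sum was held down by the choice of cells. The cycling list summed to 1.15 CPM in WT, 51.3 in mgR and 86.2 in mgR-LOS. In mgR 3 cells held 78.6% of its UMIs, and in mgR-LOS 2 cells held 94.8%. The macrophage list of 10 summed to 66.6, 143 and 228 CPM, with Cd74 the most abundant and C1qa at 2.98, 16.7 and 14.2. Among 8 Schwann cell genes, S100b and Ncam1 were measured and at least 2-fold higher than in the other classes, while the defining Sox10 had no UMI in any library, and S100b is also a cartilage gene. The mesothelial list of 9 was carried by few cells. Only 5 WT, 11 mgR and 10 mgR-LOS cells held at least 5 UMIs of it per 10000, they gave 99.5%, 99.4% and 97.3% of its UMIs, and their median Comp+Chad+Fmod was 7.29, 4.72 and 7.31. Its most abundant gene Upk3b was at 43.1, 88.3 and 57.1 CPM, and all 5 genes measured were at least 2-fold higher than in the other classes. Of these 5 genes 4 were higher in mgR than in WT (Upk3b, Upk1b, Krt18 and Lrrn4) and 3 were lower in mgR-LOS than in mgR (Msln, Upk1b and Krt18), with the list at 137, 286 and 149 CPM in all. With these cells left out, the counts of cartilage, bone and cytokine genes given below were the same. The smooth muscle list of 9 summed to 1684, 1781 and 2307 CPM against 1287, 1810 and 1786 in the other classes, with Acta2 at 561, 599 and 807. Of the 8 genes of this list measured, 6 were used by the rule, which held their sum under 100 per 10000 in all these classes. These smooth muscle sums were therefore bounded by the choice of cells. The pericyte list of 6 summed to 199, 344 and 332 CPM with Higd1b at 0 in every library, the cardiomyocyte list of 9 to 67.6, 70.2 and 75.7 with Tnnt2 highest, and the adipocyte list of 7 to 163, 165 and 197 with Lpl highest and Cidec at 0. Red cell genes summed to 494 CPM in WT, 14.8 in mgR and 45.9 in mgR-LOS, and in WT 98.4% of the Hbb-bs UMIs were in 1 cell.

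The cells differed among themselves by which of the 3 genes they carried. In WT 143 cells (46.3%, 40.6 to 52.0) had a Chad UMI, 99 (32.0%, 26.9 to 37.6) a Comp but no Chad UMI, and 67 (21.7%, 17.2 to 26.7) only Fmod. In mgR the numbers were 60 (21.7%, 17.0 to 27.0), 148 (53.4%, 47.4 to 59.4) and 69 (24.9%, 19.9 to 30.4). In mgR-LOS they were 58 (13.0%, 10.0 to 16.5), 185 (41.5%, 36.9 to 46.2) and 203 (45.5%, 40.8 to 50.3). The Chad group was thus largest in WT and the Fmod-only group largest in mgR-LOS. When the cells were thinned to 3000 UMIs before the rule, the Chad group was 39.0%, 15% and 10.2% and the Fmod-only group 29.9%, 34.0% and 51.0%, so the order was the same at equal depth.

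The Chad group had the highest levels of Ecrg4, Cilp2 and Angptl7 in each library. Ecrg4 was at 9170, 7321 and 8426 CPM in its WT, mgR and mgR-LOS cells, at 3775, 3513 and 2928 in cells with Comp but no Chad, and at 2058, 2588 and 961 in Fmod-only cells. Cilp2 was at 511, 349 and 353 CPM in the Chad group, at 35.9, 45.4 and 23.6 in cells with Comp but no Chad, and at 41.9, 11.2 and 0 in the Fmod-only group, where a count of 0 in mgR-LOS allows up to 1.63 CPM. Angptl7, a secreted angiopoietin-like protein of cornea and tendon, was at 1581, 1139 and 1680 CPM against 245, 200 and 68.6 in the Fmod-only group. Col14a1, a collagen of fibril surfaces that is high in adventitial fibroblasts, ran the other way, at 54.7, 83.7 and 162 CPM in the Chad group and 429, 593 and 1161 in the Fmod-only group. Podn, a small leucine-rich proteoglycan, and Cpz, a carboxypeptidase, were at 5.14 and 0.934 CPM in the WT Chad group and at 102 and 95.4 in the WT Fmod-only group. Tbx20 did not follow this order, at 338, 394 and 511 CPM in the Chad group and 304, 449 and 351 in the Fmod-only group. These groups were formed from the measured counts, so the values describe them.

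**Figure D3:**
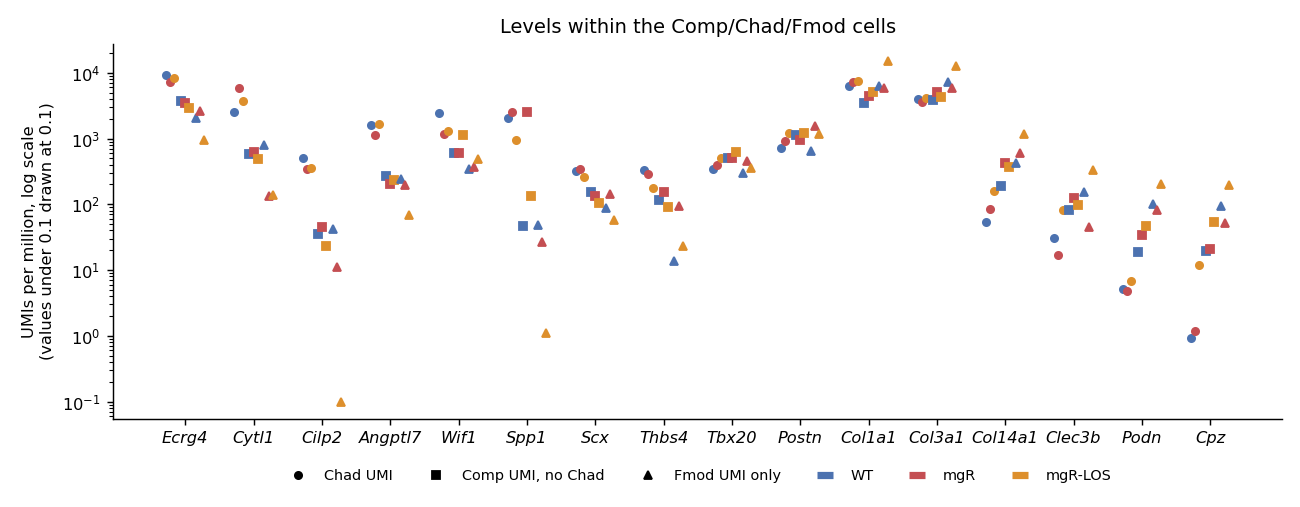
The y axis gives CPM on a log scale for 16 genes in Comp/Chad/Fmod cells with a Chad UMI (circles), with Comp but no Chad (squares) and with Fmod only (triangles), colored by library. Ecrg4, Cytl1, Cilp2 and Angptl7 are highest in the cells with Chad, whereas Col14a1, Podn and Cpz are highest in the cells with Fmod only.

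Comp/Chad/Fmod cells made up a smaller share of the fibroblasts in the mutant libraries. They were 26.3% (23.8 to 29.0) of 1173 Dcn fibroblasts in WT, 13.5% (12.1 to 15.1) of 2049 in mgR and 15.7% (14.4 to 17.1) of 2835 in mgR-LOS. The share in mgR was 12.8 percentage points below WT (interval of the difference -15.8 to -9.93). That in mgR-LOS was 2.21 points above mgR (0.195 to 4.19). Of all cells that passed the filter they were 5.76%, 3.43% and 3.51%, 2.33 points lower in mgR than in WT and 0.0761 points higher in mgR-LOS than in mgR (-0.443 to 0.578). The lower share among fibroblasts came with a larger Gdf10 class, which was 12.4% of Dcn fibroblasts in WT, 39.8% in mgR and 27.8% in mgR-LOS, since the shares sum to the whole. The Pi16 class was smaller as well, at 46.0% in WT, 33.1% in mgR and 35.0% in mgR-LOS, and its difference between mgR and WT was also -12.8 points. Per 100 cells of the Pi16 class there were 57.3, 40.8 and 45.005 Comp/Chad/Fmod cells. Without Fmod in the sum the share in mgR-LOS was 1.53 points below that in mgR, so the direction of the losartan difference rests on the Fmod-only cells. Genotype and treatment cannot be told apart from other differences between these 3 pools.

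**Figure D4:**
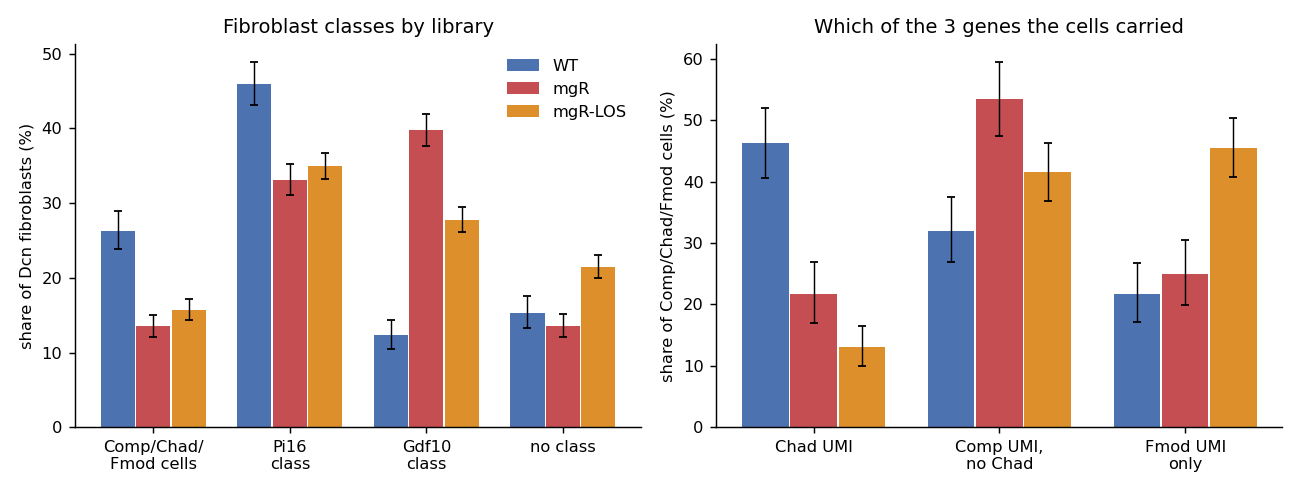
Left, bars give the share of each class among the Dcn fibroblasts of each library in percent. Right, bars give the share of Comp/Chad/Fmod cells that carried Chad, Comp without Chad or Fmod only. Error bars are exact (Clopper-Pearson) 95% intervals and cover counting error only. The Comp/Chad/Fmod share is 26.3% in WT and lower in both mutant libraries, and the Chad group is smallest in mgR-LOS.

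Set against WT, the mgR cells had more transcripts of cytokine list genes, Timp1 and Serpina3n and less of several matrix genes. Of 2999 genes with at least 50 CPM in either library, 76 (2.53%) were at least 2-fold higher in mgR and 25 (0.834%) at least 2-fold lower, and the median of all was 0.04 on the log2(CPM + 1) scale. A list gene counted as measured from 20 CPM in any library, so genes low in WT could enter through mgR. The list counts and medians that follow are therefore descriptions, and the shares over all genes rest on another filter. Of 11 cytokine and chemokine list genes measured, 8 were higher (Ccl2, Ccl7, Cxcl1, Cxcl2, Il6, C3, C4b and Saa3) and none lower, with a median of 2.84, and the list summed to 753 CPM in WT and 2560 in mgR. These genes were not limited to Comp/Chad/Fmod cells, and in the Pi16 and Gdf10 classes the list summed to 2262 CPM in WT and 4453 in mgR. At least 5 UMIs of the list per 10000 were found in 117 of the 309 WT cells (37.9%), 170 of the 277 mgR cells (61.4%) and 258 of the 446 mgR-LOS cells (57.8%). Of the other lists, 5 of 13 cartilage genes were higher and Ucma lower, 4 of 8 bone genes were higher, and 3 of 7 tendon genes (Cilp2, Angptl7 and Clec3a) were lower and none higher. Snorc, at 7.10 CPM in WT and 28.5 in mgR, and Ibsp, with no UMI in WT, did not reach the list minimum in WT. Among 10 Pi16 adventitial genes Ly6a, Ly6c1, Anxa3 and Has1 were higher and none lower. Among 7 secreted Wnt antagonists Sfrp1 and Sfrp4 were higher and Wif1 lower. Without the 10 cells of each library with the most Col2a1, no cartilage gene besides Col2a1 was higher, Col11a2, Cnmd and Ucma were lower, so that Cnmd turned its direction, and 5 bone genes were higher. The mgR cells left out held 94.98% of the Cnmd UMIs of mgR, so its turn rests on few remaining counts. Elastic fiber genes gave Efemp1 higher and Fbn1 and Mfap4 lower among 15, and Inhba, an activin subunit of the TGF-beta and BMP list, was higher. Markers of other cells were higher in mgR as well, with Lyz2 of the macrophage list, Rgs5 and Notch3 of the pericyte list and Fabp4 of the adipocyte list at least 2-fold higher beside the list sums given above, and their part in the result was not tested. Of 13 matrix proteases and inhibitors, the proteases Mmp3, Adamts1 and Adamts4 and the inhibitor Timp1 were higher and none lower.

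Timp1, an inhibitor of matrix metalloproteinases (ENSMUSG00000001131), was at 218 CPM (205 to 233) in WT, 1376 (1339 to 1415) in mgR and 200 (187 to 215) in mgR-LOS. It was 6.31-fold (5.88 to 6.76) higher in mgR than in WT, and 2.08-fold higher in the Pi16 and Gdf10 classes. Some 230 WT and 234 mgR cells carried it, and the highest cell held 17.9% of the mgR UMIs. Lcn2, lipocalin-2, an iron-carrier protein of inflammation, was at 5.04 CPM in WT, 488 in mgR and 2.98 in mgR-LOS, in 14, 50 and 9 cells. In the Pi16 and Gdf10 classes Lcn2 was also highest in mgR, at 1.67, 35.8 and 1.72 CPM in the same order. Il6 was at 21.8, 193 and 117 CPM and Cxcl1, a neutrophil chemokine, at 84.7, 611 and 443. Serpina3n, a protease inhibitor of the acute phase, was at 49.5, 364 and 122 CPM and in 76, 159 and 155 cells. Ccl2 and Ccl7, chemokines for monocytes, were 18.7-fold (13.1 to 27.6) and 8.84-fold (6.69 to 11.9) higher in mgR, and without the highest cell of each library 41.0-fold and 13.7-fold.

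Other sums rested on few cells. Saa3, serum amyloid A3, had 2 UMIs in WT and 673 in mgR, a ratio of 403 (111 to 3333), and 80.4% of the mgR UMIs were in 1 of its 7 cells. Ibsp, bone sialoprotein, had no UMI in WT and 385 in mgR, which is at least 154-fold higher against a floor of 3 counts in the WT library, but the UMIs came from 3 cells and 86.0% from 1. Col2a1 was at 32.5 CPM in WT, 450 in mgR and 4.97 in mgR-LOS. The 10 mgR cells with the most Col2a1 held 99.1% of its UMIs, 94.2% of those of Snorc, 94.98% of Cnmd, 88.1% of Ibsp, 63.5% of Col11a1 and 40.5% of Acan, and 5.25% of all UMIs of the mgR cells. The mgR sums of Col2a1, Snorc, Cnmd and Ibsp were therefore mostly those of a small number of cells, and 8 mgR cells had at least 10 Col2a1 UMIs per 10000 against 2 in WT and 0 in mgR-LOS.

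Genes lower in mgR included the targeted gene. The Comp/Chad/Fmod cells held 494 CPM of Fbn1 in WT (473 to 515), 118 in mgR (107 to 129) and 105 in mgR-LOS (94.8 to 115), 0.238 times (0.214 to 0.264) the WT level in mgR. The gene (ENSMUSG00000027204) spans 125300594 to 125507993 of chromosome 2. Mfap4, a microfibril-associated protein, was at 1080, 502 and 499 CPM, and its ratio of mgR over WT was 0.465 in these cells and 0.435 in the Pi16 and Gdf10 classes. Htra1 and Htra3, secreted serine proteases, were at 502, 228 and 270 CPM and at 235, 109 and 150 CPM. Wif1 was at 0.465 times its WT level in mgR over all the cells. Within the groups the ratio was 0.488 in cells with Chad, 0.987 in cells with Comp but no Chad and 1.09 in Fmod-only cells. Cilp2 was at 0.395 times its WT level, and at 0.684 times in the Chad group, where it was concentrated, and Angptl7 at 0.460 and 0.720 times. Ucma was at 139, 21.4 and 19.1 CPM and at 0.167 times its WT level in the Chad group, so it was lower within that group as well. Matn4, a matrilin, was at 112, 51.5 and 43.7 CPM. Hbb-bs, the other gene among the 10 lowest, was at 1.53 times its WT level once its highest cell was left out of each library.

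**Figure D5:**
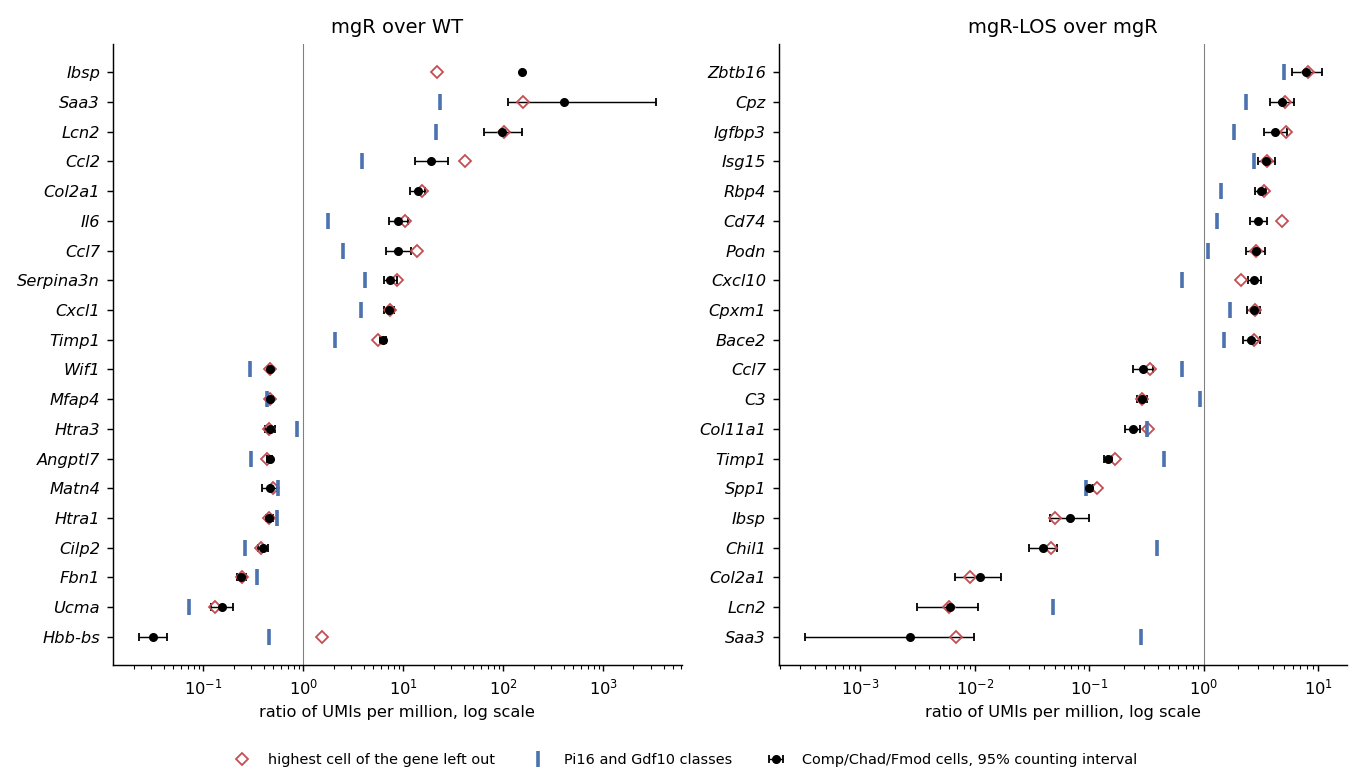
The x axis, on a log scale, gives ratios of CPM between libraries for the 10 highest and 10 lowest genes of each comparison, mgR over WT (left) and mgR-LOS over mgR (right). Black points with bars are Comp/Chad/Fmod cells with 95% counting intervals (Ibsp over WT is a lower bound), red diamonds leave out the highest cell of each gene, and blue ticks are the Pi16 and Gdf10 classes. The diamond of Hbb-bs is at 1.53 while its point is at 0.0314, and that of Saa3 over WT is at 158 while its point is at 403.

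Several transcripts that were high in mgR were low in the losartan library. This comparison uses the same mgR library as that with WT, so values low in mgR-LOS and high in mgR appear in both. Of 3113 genes with at least 50 CPM in either library, 39 (1.25%) were at least 2-fold higher in mgR-LOS than in mgR and 45 (1.45%) at least 2-fold lower, with a median of -0.02 over all. Of 13 cartilage genes 10 were lower and none higher, with a median of -1.49, and of 8 bone genes 5 were lower and none higher. Much of this lay in the few mgR cells rich in Col2a1 described above. Some list genes also counted as measured through mgR alone, such as Snorc at 7.10 CPM in WT, 28.5 in mgR and 0.248 in mgR-LOS. A lower value in mgR-LOS was favored for such genes, so the list counts of this comparison are descriptions. With the 10 cells of most Col2a1 left out of each library (all 7 carriers in mgR-LOS), 3 cartilage genes besides Col2a1 (Acan, Col9a2 and Snorc) and 3 bone genes (Bglap, Spp1 and Enpp1) were lower. The mgR cells left out held 94.2% of the Snorc and 87.3% of the Col9a2 UMIs of mgR. For Snorc and Col9a2 the result thus rests on few remaining counts. Col2a1 itself, by which these cells were chosen, cannot be judged in this way. Ccl2, Ccl7, C3 and Saa3 were lower among 11 cytokine genes, and the list summed to 1543 CPM in mgR-LOS, while the share of cells with at least 5 of its UMIs per 10000 was close to that in mgR, as given above. Timp1 was at 0.146 times (0.135 to 0.157) its mgR level and Lcn2 at 0.00611 times (0.00315 to 0.0107). Chil1, a chitinase-like protein of cartilage and inflammation, was at 58.9 CPM in WT, 338 in mgR and 13.4 in mgR-LOS. Spp1 was at 1018, 1895 and 190 CPM, carried by 101, 78 and 50 cells, with 32.3% of the mgR UMIs in 1 cell. Prg4 was at 0.299 times (0.288 to 0.311) its mgR level. It was lower in mgR-LOS in the other fibroblasts too, at 65.5 CPM against 131 in the mgR cells of the Pi16 and Gdf10 classes. The no-class fibroblasts had the same direction, as given above. C3 was at 130, 485 and 141 CPM, and Col11a1 at 139, 223 and 53.6.

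Some genes were higher in mgR-LOS than in mgR. Zbtb16, a zinc finger factor induced by glucocorticoids, was at 9.85 CPM in WT, 14.0 in mgR and 110 in mgR-LOS, in 37, 41 and 241 cells, and was 5.01-fold higher in mgR-LOS in the Pi16 and Gdf10 classes as well. Cpz, Podn, Cpxm1, Bace2 and Rbp4 were 4.8-, 2.84-, 2.75-, 2.62- and 3.15-fold higher. Podn was at 28.6, 39.2 and 111 CPM over all the cells, and its ratio of mgR-LOS over mgR was 1.44 in cells with Chad, 1.34 in cells with Comp but no Chad and 2.48 in Fmod-only cells, while the share of Fmod-only cells was 24.9% in mgR and 45.5% in mgR-LOS. Igfbp3, a carrier of insulin-like growth factors, was at 31.8, 25.2 and 107 CPM, and its ratio was 6.00 in Fmod-only cells. The interferon-induced Isg15 was at 41.7, 49.9 and 176 CPM and Cxcl10 at 6.87, 80.3 and 222 CPM, with 39.1% of the mgR-LOS Cxcl10 UMIs in 1 of 62 cells. Cd74, the invariant chain of antigen presentation and a macrophage list gene, was at 41.9, 45.8 and 138 CPM. The sums of macrophage and smooth muscle list genes were larger in mgR-LOS, as given above, the latter within the cap of the rule. The part of such transcripts in this result was not tested. Col1a1 and Col3a1 were 1.83- and 1.64-fold higher in mgR-LOS than in mgR over all the cells. In the Fmod-only group Col1a1 was at 6301, 5833 and 15084 CPM in WT, mgR and mgR-LOS, and in the Chad group at 6283, 7312 and 7437. The ratio of mgR-LOS over mgR for Col1a1 was 2.59 in the Fmod-only group and 1.02 in the Chad group.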

How the data were processed

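The authors deposited counts, whole numbers of UMIs per gene and cell for 32285 genes, 1 matrix per library, made with Cell Ranger from 10x 3' libraries of digested aortic tissue. The matrix headers name version 5.0.1 for WT and mgR and 6.0.1 for mgR-LOS, whereas the submitters' processing notes name 6.0.1. Cells were filtered and classed as described above, and counts were summed per library and class. Genes were compared where 1 side reached 50 CPM, and list genes counted as measured from 20 CPM in the Comp/Chad/Fmod cells. A fold against 0 used a floor of 3 counts per library, and a list gene was called 2-fold apart only if the higher side had more than 3 counts.

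The genes named were the 15 highest and 10 lowest against the other classes, ranked by the least favorable library among genes of at least 50 CPM in the higher class of every library, and the 10 highest and 10 lowest in each comparison between libraries, among genes of at least 100 CPM in either, plus genes of 32 lists. Genes of the rule were left out of the rankings. Col14a1, Cxcl10 and other list or ranked genes were followed into the groups by Chad, Comp and Fmod after their values were seen. The members, the lists and the questions were chosen with earlier results of these data known. Ccl19 was left out because its symbol has several identifiers. Intervals for counts are exact Poisson, those for shares Clopper-Pearson, those for ratios exact conditional binomial and those for differences of shares Newcombe. Doublets were scored against 25% artificial doublets with 2000 variable genes and 10 components, and were kept. Code was checked on simulated counts. Python 3.11.15, numpy 2.4.6, scipy 1.17.1, pandas 2.3.3, scikit-learn 1.9.0 and matplotlib 3.10.9 were used. Values of some list genes are not reported here.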

Additional observations from a re-analysis of the deposited data

Results flagged for a closer look

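Cxcl10, an interferon-induced chemokine, differed in direction between fibroblast classes. Its level in mgR-LOS was 2.76 times that in mgR in the Comp/Chad/Fmod cells and 0.651 times in the Pi16 and Gdf10 classes. The difference between the classes was not tested. Within the Comp/Chad/Fmod cells the ratio was 1.01 in cells with Chad, 1.52 in cells with Comp but no Chad and 4.94 in Fmod-only cells. A single cell held 39.1% of the Cxcl10 UMIs of the mgR-LOS cells, and without the highest cell of each library the ratio was 2.13.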

How the results depend on the processing

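The lower share of Comp/Chad/Fmod cells in mgR kept its direction in every alternative run. Of 11 alternatives only the change of denominator moved it, from -12.8 percentage points to -2.33 of all cells that passed the filter. The difference between mgR-LOS and mgR, 2.21 points, was 0.0761 points on that denominator and -1.53 points with Fmod left out of the sum. The numbers of genes at least 2-fold apart, 191 between classes, 101 between mgR and WT and 84 between mgR-LOS and mgR, were 116, 57 and 45 at a minimum of 100 CPM, 314, 211 and 171 at 20 CPM, and 345, 279 and 280 at 1.5-fold, since these settings change which genes are tested or called. Against the fibroblasts of no class, chosen after seeing the data, 47 genes were 2-fold apart. Also added after seeing the data, leaving out the highest cell of each gene gave 90 and 73 genes between libraries, keeping cells with Comp or Chad gave 267, 128 and 77, and leaving out the WT, mgR or mgR-LOS library gave 223, 221 and 269 between classes. Leaving out the 10 cells with the most Col2a1 gave 182, 95 and 72, and leaving out the cells with mesothelial markers 193, 99 and 85. Removing called doublets or thinning to 3000 UMIs kept all 5 results within 1.5 times or in direction. No paired analysis was possible because each condition had 1 library. Depth was lowest in mgR-LOS, which limits detection per cell there.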
